A study of Mus musculus with 6 samples.

Results

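Dbp, Tef, Bhlhe40 and Usp2 are output genes of the circadian clock, read here in mouse liver. They were chosen by gene symbol: all probe sets that the platform annotation assigns to one of these 4 genes were used, which gave 5 probe sets, 2 of them for Usp2, among 8251 genes named on the array. Total RNA of liver was hybridised to 6 one-colour arrays, 1 for each of 3 genotypes at 2 circadian times, in male mice 8 to 10 weeks old. The genotypes were Clock mutant, Cry-deficient and wild type. CT14, 14 h after subjective dawn, falls early in the subjective night, and CT02, 2 h after it, early in the subjective day.

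The labels state a strain background, C57BL/6, only for wild type. The sources used here name neither the Clock allele nor the Cry alleles, and do not say whether RNA of several mice was pooled. The Cry-deficient CT02 sample is described as lacking both Cry1 and Cry2, and the CT14 sample only as Cry-deficient. With 1 array per group no difference has a replicate check, so no p-value is given, and the order of levels that lie close together cannot be judged. The precision of each value is limited by this number of arrays.

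In the mammalian clock, the proteins CLOCK and BMAL1 (the product of Arntl) bind E-box sequences as a pair and switch on genes, among them those of the PER and CRY proteins, which then repress the pair. The same pair acts on output genes that carry the rhythm to the rest of the cell. Dbp and Tef encode transcription factors of the PAR bZIP family, which bind D-box sequences and drive genes of liver metabolism. Bhlhe40 (DEC1) encodes a repressor that binds E-boxes and so acts back on clock genes. Usp2 encodes a ubiquitin-specific protease, an enzyme that removes ubiquitin from other proteins. Dbp RNA in mouse liver is known to be highest late in the subjective day, between the times sampled here.

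The promoter sequences of the members are shown because E-boxes are the element through which the targeted proteins act. RefSeq windows of 300 bases (250 before to 50 after a start site, build GRCm38.p6, all on the plus strand) matched 3 of the 4 genes: Dbp had 1 window, Usp2 1 and Tef 2. Bhlhe40 (chromosome 6, 108660629 to 108666925) had no matching window. In the lines that follow, capitals mark the E-box CACGTG.
Tef, window 1, chr15:81802423-81802722: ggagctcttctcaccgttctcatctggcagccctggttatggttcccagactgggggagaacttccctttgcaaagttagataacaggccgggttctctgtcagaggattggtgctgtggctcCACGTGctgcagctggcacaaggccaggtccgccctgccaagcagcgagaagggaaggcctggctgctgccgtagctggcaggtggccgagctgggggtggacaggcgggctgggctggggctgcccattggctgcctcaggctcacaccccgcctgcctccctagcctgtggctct
Tef, window 2, chr15:81811164-81811463: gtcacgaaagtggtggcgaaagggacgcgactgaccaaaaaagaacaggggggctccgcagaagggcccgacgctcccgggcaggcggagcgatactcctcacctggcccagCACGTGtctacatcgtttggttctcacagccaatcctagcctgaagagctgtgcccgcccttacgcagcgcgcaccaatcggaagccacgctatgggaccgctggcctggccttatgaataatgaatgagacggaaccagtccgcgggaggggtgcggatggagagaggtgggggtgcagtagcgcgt
Dbp, chr7:45704997-45705296: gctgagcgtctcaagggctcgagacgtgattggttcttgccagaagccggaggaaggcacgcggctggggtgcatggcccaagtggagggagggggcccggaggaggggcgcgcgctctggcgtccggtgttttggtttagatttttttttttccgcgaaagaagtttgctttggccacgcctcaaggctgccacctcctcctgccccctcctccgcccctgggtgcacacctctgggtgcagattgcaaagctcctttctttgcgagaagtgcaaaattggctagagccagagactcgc
Usp2, chr9:44084670-44084969: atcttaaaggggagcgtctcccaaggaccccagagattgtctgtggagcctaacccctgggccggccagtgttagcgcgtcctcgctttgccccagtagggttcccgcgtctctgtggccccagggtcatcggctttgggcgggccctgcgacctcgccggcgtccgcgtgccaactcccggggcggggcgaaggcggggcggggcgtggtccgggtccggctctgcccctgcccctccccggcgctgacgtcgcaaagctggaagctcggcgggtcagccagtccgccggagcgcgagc

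Both Tef windows held 1 CACGTG, beginning 127 bases before the start site in window 1 and 138 bases before it in window 2. The hexamer reads the same on both strands, and 7.15% of the 32851 RefSeq windows of this length held it. The Dbp and Usp2 windows held none. The E-box variant CACGTT (4.68% of all windows) and the D-boxes TTATGTAA (0.938%) and TTACGTAA (0.119%), searched on both strands, were in none of the 4 windows. The search says only which letters lie in these windows. The annotation places Tef on chromosome 15 from 81802673 to 81826863, Usp2 on chromosome 9 from 44067021 to 44095627 and Dbp on chromosome 7 from 45705100 to 45710203, so that the first Tef window is that of the gene's own start. The start sites of the other windows lie inside their genes, 8741 bases from the gene's start for the second Tef window, 17899 for Usp2 and 147 for Dbp.

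The values are deposited intensities divided by 1 scaling factor per array (scaled units). Values under 606 scaled units, the pooled median, were set to that floor before ratios were taken. Where 1 of the compared values was under it, the fold is a minimum and is written "at least". Where both were, no fold was computed. Of the 8251 genes, 4844 had a mean at or above the floor and were kept, all 4 members among them. Dbp passed with a mean of 681 scaled units and 3 arrays above the floor, and Usp2 with 4 such arrays. Without the Cry-deficient arrays, the mean of Dbp and that of the brighter Usp2 probe set would lie under the floor. Passing this filter thus already implied a difference between arrays for both. Levels of different probe sets are not compared with one another, since probes differ in how brightly they bind.

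The arrays differed in other ways. The mean deposited intensity lay between 1637, on the Clock mutant CT02 array, and 2486. The 3' over 5' ratio of the Actb control probe sets, which tells of RNA length, was 2.68 for the Clock mutant at CT02, 1.70 for the Cry-deficient array at CT02 and from 0.84 to 1.15 elsewhere. The same ratio for the pyruvate carboxylase gene Pcx lay between 3.96 and 7.14 on the CT14 arrays and between 17.7 and 25.3 on the CT02 arrays of all genotypes. The part of RNA length in the differences between times, and in those that use the Clock mutant CT02 array, was not tested. Hepatocyte markers were present, 8 of 8 kept, with Alb between 6636 and 12424 scaled units. Their sum was lower at CT14 than at CT02 in each genotype. It was 86482 against 126314 scaled units in the Clock mutant, 100354 against 122255 on the Cry-deficient arrays and 103151 against 112995 in wild type. The part of this shift in the differences between times was not tested. Markers of T cells (4), neutrophils (4) and cholangiocytes (3) were at the floor on every array. In bulk tissue, fewer cells of a type and less RNA per cell cannot be told apart. Cry1 stood at 4718 and 3845 scaled units on the Cry-deficient arrays at CT14 and CT02, against 2723 and 1833 in wild type, on a probe set named as a sequence family. Cry2 stood at 1344 and 1185 scaled units on those arrays, against 2256 and 1215 in wild type. The sources used here do not place these probes inside or outside the deleted parts, so their levels cannot check the label. The arrays are therefore called Cry-labelled below, and every direction drawn from them rests on the label.

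Tef stood at 3552 and 2939 scaled units in Clock mutant liver at CT14 and CT02, at 6790 and 7680 on the Cry-labelled arrays, and at 6350 and 2543 in wild type. Both Cry-labelled arrays and wild type at CT14 were high, and both Clock mutant arrays lay between the wild-type levels, nearer to that of CT02. Bhlhe40 stood at 3090 and 2133 scaled units in Clock mutant liver at CT14 and CT02, at 4652 and 8924 on the Cry-labelled arrays, and at 5564 and 1111 in wild type. Its highest array was the Cry-labelled CT02 array and its lowest the wild-type CT02 array.

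Usp2, on its brighter probe set, read -1779 and -1781 scaled units in Clock mutant liver at CT14 and CT02, 3514 and 5264 on the Cry-labelled arrays, and 3404 and 733 in wild type. A reading below 0 means only that the subtracted signal, of background or of mismatch probes, exceeded the probe signal. On the Clock mutant arrays just 0.934% (CT14) and 1.77% (CT02) of the probe sets read lower. The second Usp2 probe set read 416 and 625 in the Clock mutant, 2108 and 2124 on the Cry-labelled arrays, and 1098 and 373 in wild type. It was dimmer but had the same 3 high arrays. The sources used here do not say which transcripts each probe set reads.

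Dbp read -85 and -284 scaled units in Clock mutant liver at CT14 and CT02, 2259 and 1836 on the Cry-labelled arrays, and 750 and -392 in wild type. It was thus clearly above the floor only on the Cry-labelled arrays. On all 5 probe sets, the same 3 arrays were the highest: the Cry-labelled CT14 and CT02 arrays and the wild-type CT14 array. This arrangement was noticed after the values were seen, and 7.58% of the 4844 kept genes share it.

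**Figure D1:**
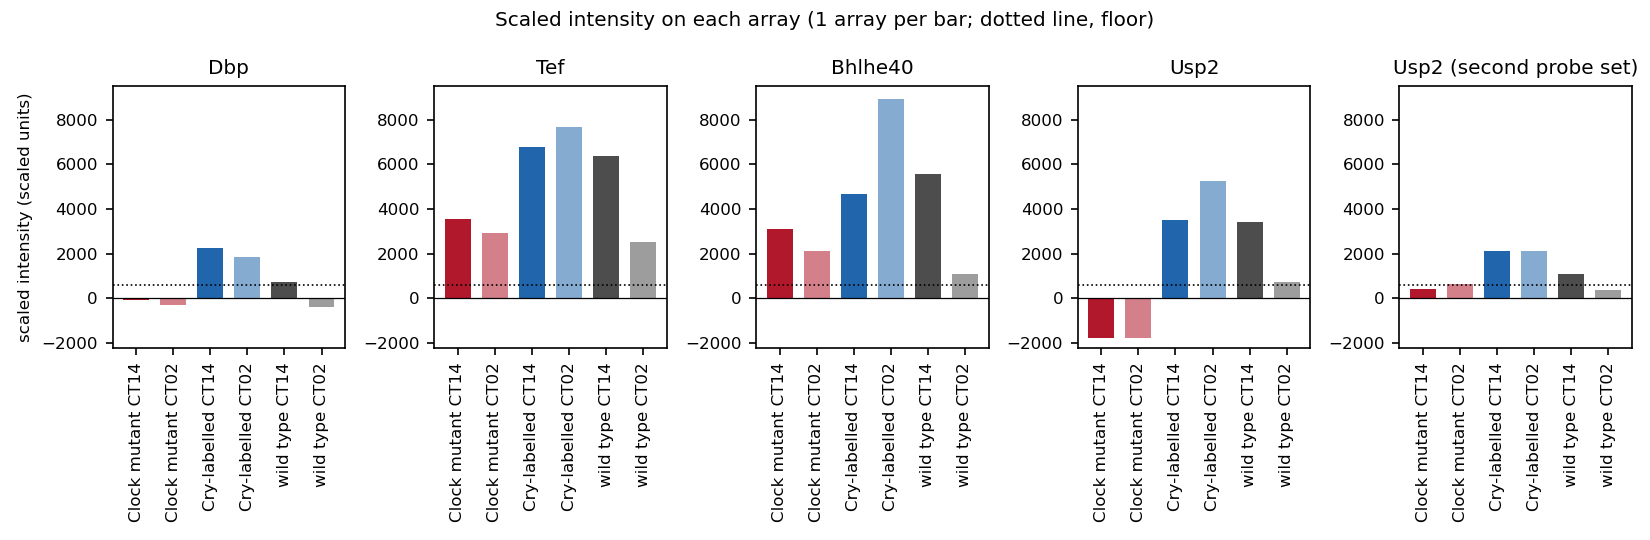
Scaled intensity (vertical axis, scaled units) of the 5 probe sets on each of the 6 arrays, 1 array per bar, dark for CT14 and pale for CT02, with the floor of 606 as a dotted line. The Cry-labelled bars and the wild-type CT14 bar are the tallest in every panel, and the Clock mutant bars of the brighter Usp2 probe set lie far below 0.

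Early subjective night was compared with early subjective day within each genotype, to see whether the output genes differed between the times. In wild type, 3 of the 4 genes were at least 2-fold higher at CT14, against 2.48% of all kept genes. Bhlhe40 was 5.01-fold higher (rank 5 of 4844 by log2 ratio), Usp2 4.64-fold (rank 8) and Tef 2.50-fold (rank 63). The wild-type CT02 reading of Usp2, 733 scaled units, was close to the floor, and with both Usp2 probe sets averaged the log2 ratio was 1.54, against 2.21 on the brighter one. On the second Usp2 probe set the difference was at least 1.81-fold. Dbp was at least 1.24-fold higher, a bound set by the floor. With a floor at the 25th percentile, 28.7 scaled units, its log2 ratio was 4.71. This probe set read down to -392 scaled units, so 28.7 lies within background readings and 4.71 is not a minimum.

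In the Clock mutant 2 of the 4 genes had no ratio between the times, Dbp and, on its brighter probe set, Usp2. Neither of the others was 2-fold apart, against 7.74% of all kept genes. Bhlhe40 had a log2 ratio of 0.53 and Tef one of 0.27. Dbp was under the floor at both times, as was the brighter Usp2 probe set. Without scaling, the ratio of Bhlhe40 was 1.03, beside a median over all genes of 0.45.

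On the Cry-labelled arrays none of the 4 genes was 2-fold apart between the times, against 5.55% of all kept genes. Bhlhe40 was the farthest apart, lower at CT14 with a log2 ratio of -0.94. Usp2 had a ratio of -0.58 (-0.01 on the second probe set) and Dbp one of 0.30. Tef had a ratio of -0.18. Without scaling that ratio was 0.03, beside a median over all genes of 0.20.

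**Figure D2:**
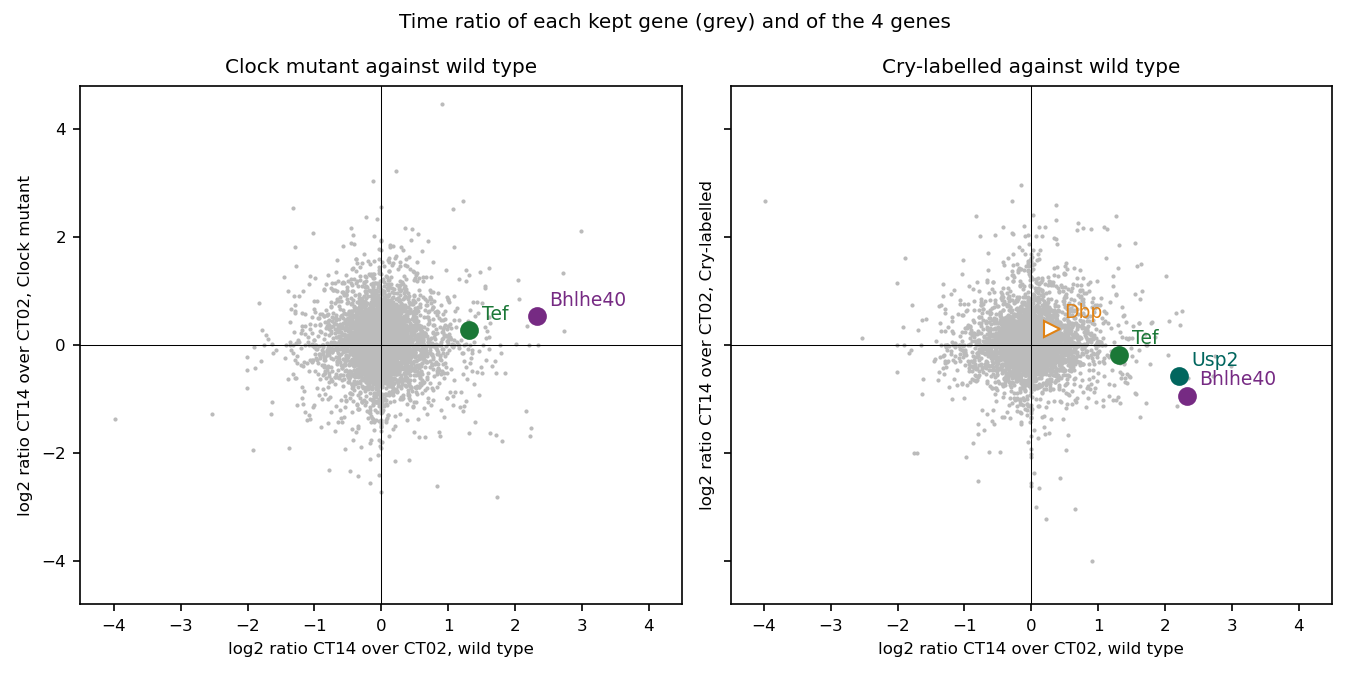
Log2 ratio of CT14 over CT02 in the Clock mutant (left) and on the Cry-labelled arrays (right), against that in wild type on the horizontal axis, for each kept gene (grey) and for the members that have a ratio (an open triangle where the wild-type ratio is a lower bound). Bhlhe40, Usp2 and Tef lie far to the right but between -0.94 and 0.53 on the vertical axes.

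The difference between the time ratios was then taken directly, mutant minus wild type, as log2 values. It was -3.26 for Bhlhe40, -2.80 for Usp2 and -1.50 for Tef on the Cry-labelled arrays. These 3 genes were past a 2-fold difference on the lower side, against 4.71% of all kept genes. The value of Usp2 is that of its brighter probe set: the mean over both probe sets gave -1.83, and the second alone at most -0.87, a bound that does not reach 2-fold. In the Clock mutant it was -1.79 for Bhlhe40 and -1.05 for Tef, both past 2-fold on the lower side, against 6.05% of all kept genes. The value of Tef was -0.58 without scaling. Both differences use the same wild-type arrays. In the Clock mutant, Dbp and Usp2 had no such value, since both readings were under the floor. On the Cry-labelled arrays that of Dbp was at most -0.01, a bound set by the wild-type CT02 reading.

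The mutants were next set against wild type at each time, which asks how the level of the outputs stood. On the Cry-labelled array at CT02 all 4 genes were at least 2-fold above wild type, against 2.73% of all kept genes. Dbp and the brighter Usp2 probe set passed the filter only with their high Cry-labelled readings. Counts of members above wild type on these arrays are therefore partly set by the filter. The wild-type CT02 array used here also enters the wild-type time ratios and the differences of the time ratios, so these results are not independent. Bhlhe40 was 8.03-fold higher (rank 3 of 4844), Usp2 7.18-fold (rank 5), Tef 3.02-fold (rank 42) and Dbp at least 3.03-fold (rank 41 as a bound). The second Usp2 probe set was at least 3.50-fold higher. At CT14 only Dbp of the 4 was past 2-fold, at 3.01-fold above wild type, against 2.46% of all kept genes. Tef (log2 ratio 0.10), Usp2 (0.05) and Bhlhe40 (-0.26) stood close to wild type at that time. The second Usp2 probe set was 1.92-fold higher.

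Other features moved on the Cry-labelled CT02 array. Its Gapdh 3' to 5' ratio was 2.37, against 0.70 in wild type at CT02, and its Pcx ratio was 25.3, against 19.7. The 9 macrophage markers, all kept, summed to 39985 scaled units there, against 28808 in wild type at CT02 and between 22726 and 28810 on the other 4 arrays. Of these markers 8 were above wild type at CT02, 2 of them at least 2-fold (Marco and Tyrobp), and C1qa was at least 2-fold lower. The 4 stellate cell markers kept were all below wild type at CT02, none by 2-fold, with a median log2 ratio of -0.66. The 5 stellate markers measured, kept or not, summed to 6332 scaled units on the Cry-labelled CT02 array, against 10473 in wild type at CT02. On the other 4 arrays this sum lay between 8161 and 12519. Alas2, the only erythroid marker kept, read 4590 scaled units on the Cry-labelled CT02 array, against 8637 in wild type at CT02, a log2 ratio of -0.91. The part of RNA length, macrophages, stellate cells and erythroid cells in the levels of the 4 genes was not tested.

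In the Clock mutant at CT14 the brighter Usp2 probe set was at least 5.62-fold below wild type, the only one of the 4 genes past 2-fold, against 5.64% of all kept genes on that side. The second probe set was at least 1.81-fold lower, and the average of both gave a log2 ratio of at most -1.67. Bhlhe40 (log2 ratio -0.85) and Tef (-0.84) were below wild type by less than 2-fold, and Dbp was at least 1.24-fold lower. With the floor at the 25th percentile the log2 ratio of Dbp was -4.71, a value set by that floor and not a limit. At CT02 Bhlhe40 and Tef, alone above the floor on both arrays, were not past 2-fold, against 11.8% of all kept genes in either direction. Bhlhe40 was the farthest apart there, with a log2 ratio of 0.94 above wild type (1.02 after lowess correction). Usp2 was at least 1.21-fold lower, limited by the wild-type reading near the floor, and Dbp was under the floor on both arrays. With the floor at the 25th percentile the log2 ratio of Usp2 was -4.68, likewise set by that floor. Tef had a ratio of 0.21. Without scaling that ratio was -0.35, beside a median over all genes of -0.52.

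**Figure D3:**
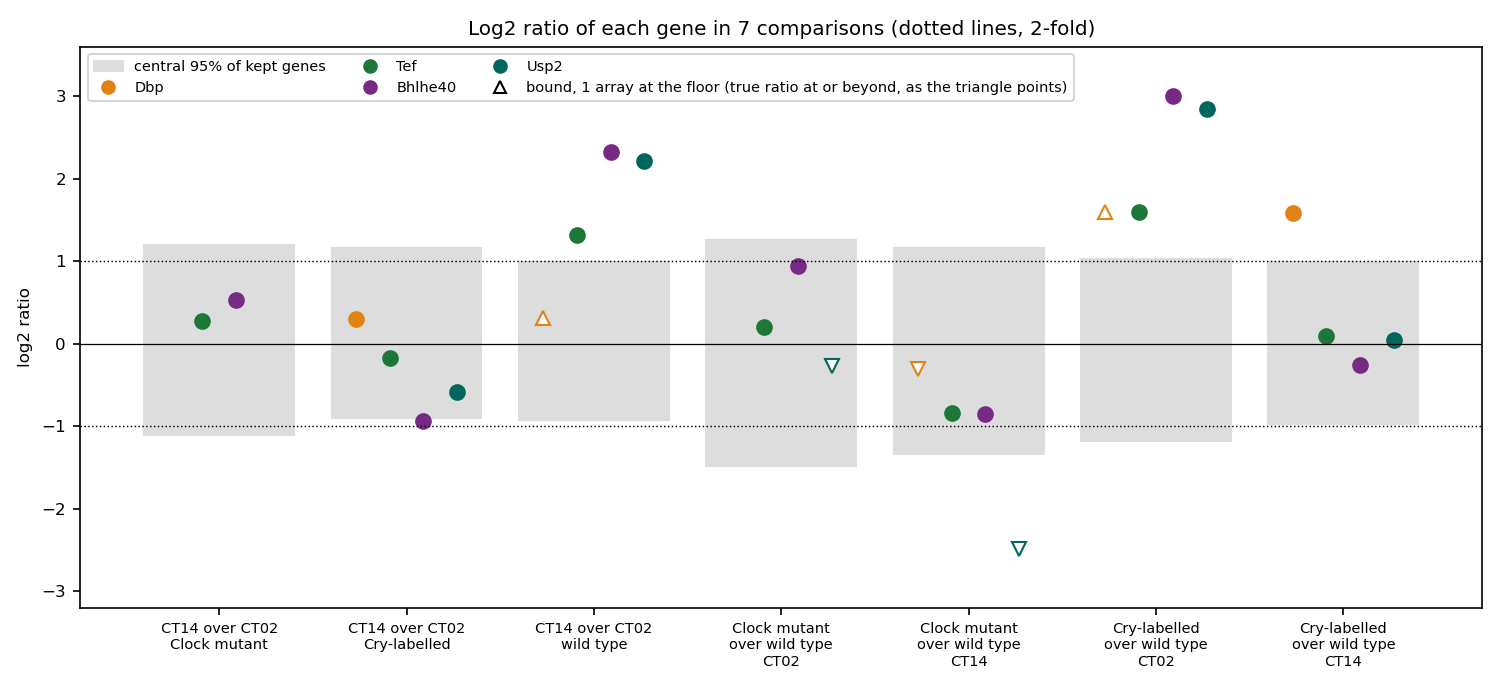
Log2 ratio (vertical axis) of the 4 genes in the 7 comparisons, with grey boxes for the central 95% of the kept genes, dotted lines at 2-fold and open triangles where 1 reading was at the floor, pointing the way the true ratio may extend. All 4 genes lie above the box for the Cry-labelled array over wild type at CT02, and Usp2 lies lowest in the comparison of Clock mutant with wild type at CT14.

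The genes whose profile over the 6 arrays was most like that of a member were looked for among 1629 other kept genes that were above the floor on at least 4 arrays and varied at least 2-fold. Pearson's r on log2 values is given as a description over 6 arrays. Each pair of profiles shares the same arrays and their scaling, and values at the floor tie. Dbp was above the floor on too few arrays for this. The closest to Tef were Acvr2b, an activin receptor gene (0.97), Slc1a2, a glutamate transporter gene (0.97), Fam102a (0.96), the clock repressor gene Per2 (0.96) and Chtf8 (0.96), with Usp2 next at rank 6 (0.96). The closest to Bhlhe40 were Fech, which encodes the last enzyme of heme synthesis (0.95), Tef (0.95), Acvr2b (0.93), Egr2 (0.92) and Fam102a (0.91). The closest to Usp2 were Chtf8 (0.99), Cyp26a1, which encodes a retinoic acid-degrading enzyme (0.99), the prion protein gene Prnp (0.98), Slc1a2 (0.97) and St3gal5 (0.97). Cyp26a1 read 877 and 839 scaled units in Clock mutant liver at CT14 and CT02, 4508 and 5643 on the Cry-labelled arrays, and 3402 and 1296 in wild type. Usp2 and Bhlhe40 were less alike, with an r of 0.85.

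Other genes of the clock show where the 4 stood in it. Per2 read 778 and 651 scaled units in Clock mutant liver at CT14 and CT02, 2665 and 3071 on the Cry-labelled arrays, and 4058 and 251 in wild type. The same 3 arrays as for the members were the high ones, with wild type at CT14 above both Cry-labelled arrays. Nfil3, whose product competes with PAR bZIP proteins for D-boxes, read 1257 and 2859 in the Clock mutant, 2387 and 1629 on the Cry-labelled arrays, and 2148 and 2729 in wild type. Of the 10 core clock genes kept other than Bhlhe40, 1 (Per2) was at least 2-fold higher at CT14 in wild type and 2 (Rora and Arntl) lower, against 2.48% and 2.09% of all kept genes. On the Cry-labelled array at CT02, 3 of those 10 were at least 2-fold above wild type (Per2, Nr1d2 and Cry1) and 1 below (Clock), against 2.73% and 3.96% of all kept genes.

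Of 8 other genes with E-box control in liver, 4 were at least 2-fold above wild type on the Cry-labelled array at CT02 (2.73% of all kept genes), and the list's median log2 ratio was 1.28, beside 0.00 for all kept genes. Like the other lists, this one was chosen with earlier results of these data known. Lpin1, whose product is a phosphatidate phosphatase, was 4.05-fold higher, Rgs16, a regulator of G protein signalling, 3.25-fold, Tspan4 3.10-fold and Nampt, which encodes an enzyme of NAD synthesis, at least 3.08-fold. In wild type 3 of the 8 were at least 2-fold higher at CT14 (Lpin1, Nampt and Tspan4), against 2.48% of all kept genes, with a median of 0.68. In the Clock mutant at CT14 1 of the 8 was at least 2-fold below wild type (5.64% of all kept genes), Tspan4 (7.20-fold), with a median of -0.80, beside -0.01 for all kept genes. With only the 4 brightest of the 8 kept, the median was -0.24 for the Cry-labelled array at CT02 and -0.05 for the wild-type times.

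The last list holds genes downstream of the PAR bZIP factors in mouse liver. Of 13 kept, 1 was at least 2-fold higher at CT14 in wild type (2.48% of all kept genes), Cyp7a1, which encodes the first enzyme of bile acid synthesis (2.10-fold), and the median log2 ratio was 0.07. On the Cry-labelled array at CT02, 2 of the 13 were at least 2-fold above wild type (2.73% of all kept genes), with a median of 0.24: Cyp2b10, which encodes a drug-metabolising cytochrome (8.47-fold), and Alas1, the rate-limiting enzyme of heme synthesis (2.12-fold). Cyp2b10 was also 5.66-fold above wild type in the Clock mutant at CT14 and 12.0-fold at CT02. Its wild-type readings, 838 and 708 scaled units at CT14 and CT02, were near the floor.

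**Figure D4:**
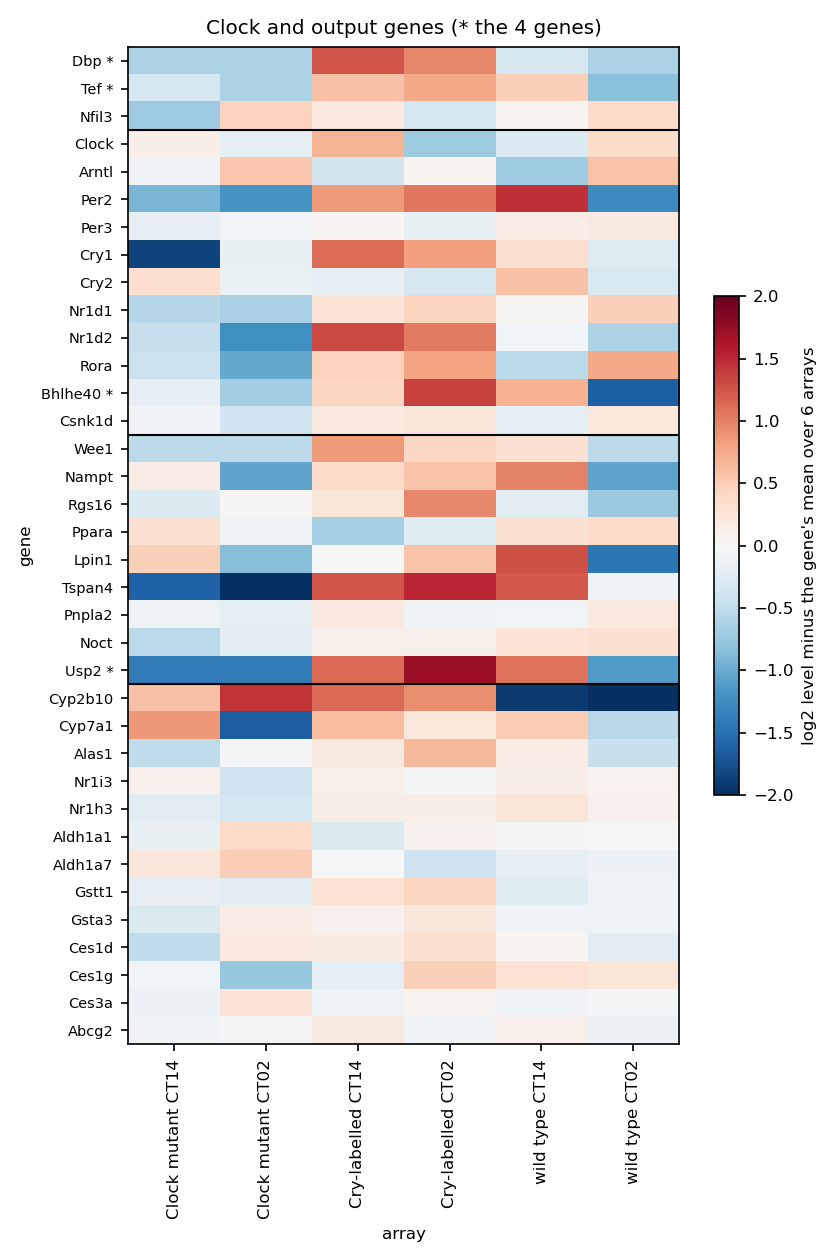
Log2 level of each kept gene minus its mean over the 6 arrays (colour), in the order PAR bZIP family and antagonist, core clock, other E-box outputs with Usp2, and genes downstream of PAR bZIP factors, with lines between these lists and the 4 members starred. Per2, Tspan4 and the members are red on the Cry-labelled arrays, whereas most genes of the lowest list are pale.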

How the data were processed

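Liver RNA of 6 groups was measured with 1 array per group, grouped by the labels' titles. Each probe set has 1 intensity an array as deposited by the authors, a whole number of either sign, so some background or mismatch signal had been subtracted. The sources used here give neither their software nor other steps. Arrays were scaled by median ratios to a reference, the geometric mean over the 6 arrays, using the 6065 brighter probe sets (mean at least the median) with no value at or below 0. Names came from the platform annotation, updated through gene numbers to RefSeq (GRCm38.p6, used for names, gene positions and promoter windows). Those with several symbols (396) or none (1237), and the 66 control probe sets, were not used for genes, and the brightest probe set stood for its gene.

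No test was made. Log2 ratios with values floored at 606 scaled units are descriptions of these arrays, and "called" means at least 2-fold apart. Over 7 comparisons the share of all 4844 kept genes past 2-fold stands beside the members. The scaling and floor were tested on simulated data. The members, lists and rules were chosen with earlier results of these data known. Named genes are the 4 members, up to 4 list members at least 2-fold apart, the clock genes set beside them, and the 5 genes of highest Pearson's r. Per2, Nfil3, Cyp26a1 and the repeated Cyp2b10 values were singled out after their values were seen. Alternatives tried were no scaling, quantile normalization, lowess correction (span 0.3), scaling taken without 1 of the CT02 arrays, a floor at the 25th percentile, the mean over probe sets, only those probe sets whose name carries no letter code, and other filters on dim genes. Python 3.11.15, numpy 2.4.6, pandas 2.3.3 and statsmodels 0.14.6 were used.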

Additional observations from a re-analysis of the deposited data

Results flagged for a closer look

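The time ratio of 3 genes had opposite signs on the Cry-labelled arrays and in wild type, where each sign rests on 1 pair of arrays and the difference was not tested. For Bhlhe40 the log2 ratio was -0.94 on the Cry-labelled arrays and 2.32 in wild type, a difference of -3.26. For Usp2 it was -0.58 on the Cry-labelled arrays and 2.21 in wild type, a difference of -2.80, and on the second probe set -0.01 and at least 0.86, so that the difference was -0.87 or lower. For Tef it was -0.18 on the Cry-labelled arrays and 1.32 in wild type, a difference of -1.50, and the sign on the Cry-labelled arrays was the opposite without scaling. On the second Usp2 probe set the Clock mutant had a ratio of at most -0.04 and wild type one of at least 0.86, so that the difference was -0.90 or lower. With 1 array per group, no group was large enough to look for an outlying array.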

How the results depend on the processing

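Of 248 recomputed ratios and differences of the members, 236 stayed on the same side of 2-fold and within 1.5-fold of the value reported, 12 did not, and none that was past 2-fold changed sign. Many of the 236 could not change, so this count overstates how stable the values are. No member probe set carries a letter code, and Dbp, Tef and Bhlhe40 have a single probe set. A lower floor leaves ratios of readings above the main floor as they were. A floor at the 25th percentile, 28.7 scaled units, moved 6, each a value that reaches as far as the floor lets it. Dbp then had log2 ratios of 4.71 between the times in wild type, -4.71 for Clock mutant against wild type at CT14 and 6.00 on the Cry-labelled array over wild type at CT02, and a difference of the time ratio, Cry-labelled minus wild type, of -4.41. Usp2 had -6.89 and -4.68 for Clock mutant against wild type at CT14 and CT02. With the mean over probe sets, Usp2 had 1.54 between the times in wild type, -1.67 for Clock mutant against wild type at CT14 and a difference of -1.83 on the Cry-labelled arrays. Without scaling, Bhlhe40 had 1.03 between the times in the Clock mutant and Tef a difference of -0.58, and after lowess correction Bhlhe40 had 1.02 for Clock mutant against wild type at CT02.

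The counts of all genes at least 2-fold apart, in the order time in the Clock mutant, on the Cry-labelled arrays and in wild type, Clock mutant against wild type at CT02 and CT14, and Cry-labelled over wild type at CT02 and CT14, were 375, 269, 221, 570, 473, 324 and 229. They were 1394, 1158, 1008, 1826, 1550, 1304 and 1049 with the lower floor, which also keeps more genes, and 77, 58, 52, 132, 129, 82 and 47 with the filter at the 75th percentile, which keeps fewer. Without scaling the first was 711 and the fourth 1032, and the share of calls that were higher was 93.1% against 55.7% for the first, 81.9% against 63.6% for the second, 5.62% against 36.1% for the fourth and 28.6% against 40.7% for the sixth. No paired analysis was possible within a comparison because each sets 1 array against 1 other, and an effect of time over the 3 genotypes together was not computed. Signal above background limits what can be read of Dbp, and of Usp2 in the Clock mutant.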

Other observations

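Usp2 was set beside the other genes named Usp followed by a number. Of the 19 others kept, none was at least 2-fold higher at CT14 in wild type and 1 was lower (Usp21), with a median log2 ratio of 0.04, whereas Usp2 had 2.21. On the Cry-labelled array over wild type at CT02, none of the 19 was at least 2-fold higher and 1, Usp5, was lower, with a median of 0.04, whereas Usp2 had 2.84. Both Usp2 values are those of its brighter probe set. The second had at least 0.86 for the wild-type times and at least 1.81 for the Cry-labelled array over wild type at CT02. These genes were not tested, since each group has 1 array.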
